A study of Rattus norvegicus with 9 samples.

Results

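The complement genes of the rat liver were examined in livers of normal rats and of rats with acute-on-chronic liver failure (ACLF). The list held 34 genes for the components, regulators and receptors of complement, and its members were taken by gene symbol from the deposited table of 32883 genes. A total of 33 of the 34 had a row under their symbol, Mbl2 being without one, and 32 passed the filter on low counts and were tested. By their usual main source in the liver, 6 were grouped as myeloid (C1qa, C1qb, C1qc, C3ar1, C5ar1 and C5ar2), 21 as hepatocyte-made, of which 19 were tested, and 7 as of other or mixed source. The grouping came from background knowledge. The source of the transcripts in these livers was not measured, and a gene of any group can also be made by other cells.

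The study asked whether extracorporeal treatment of whole blood changes the course of liver failure in rats, and poly(A) RNA-seq of whole liver was used to read the state of the liver. There were 3 livers per group. Normal livers came from rats labelled normal, for which no operation or treatment is described, and the study used male Sprague-Dawley rats throughout. Both other groups were male Sprague-Dawley rats of 8 to 11 weeks that had common bile duct ligation for 21 days and then received lipopolysaccharide (LPS) at 0.25 mg/kg, and both were connected to the circuit 1 h after LPS for 2 h. In the empty group the circuit contained neither cells nor an adsorption column. In the UTOpiA group it contained alginate-encapsulated hepatocyte-like cells made from HLA-depleted human induced pluripotent stem cells (iHLCs) together with a column for granulocyte and monocyte apheresis. ACLF livers were collected 24 h after LPS from rats that were alive at that time, so animals that died earlier are not represented, and in the sequenced livers cells and column were given only together, so their parts cannot be told apart here.

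Complement is a cascade of plasma proteins that is set off by C1q bound to antibody or to damaged surfaces, by lectins that bind microbial sugars, or by spontaneous turnover of C3. The routes meet at the cleavage of C3 and C5, which releases the anaphylatoxins C3a and C5a and ends in the membrane attack complex of C5b to C9. Hepatocytes make most of the circulating components and several belong to the acute-phase response, whereas tissue macrophages, Kupffer cells among them, are the main makers of C1q. The receptors for C3a and C5a are carried mainly by myeloid cells, and soluble and membrane-bound regulators keep the cascade in check on host tissue.

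Total counts ranged from 14241172 to 17321677 per library. Albumin, the main hepatocyte transcript, took 13.3% to 14.9% of counts in the normal group, against 1.54% to 3.91% in rats with ACLF. The complement genes together took 0.863% to 1.09% of all transcripts (as TPM, a share of transcripts scaled to length) in normal livers, 1.89% to 2.00% in the empty group and 1.96% to 2.14% in the UTOpiA group. Levels are given as deposited TPM and differences as log2 fold changes ± standard error from the edgeR quasi-likelihood fit of the counts with TMM scaling. A gene was called when its Benjamini-Hochberg adjusted p was under 0.05 and its change at least 2-fold. The scales are not the same: the median of all genes in the empty group against normal was 0.04 on the fitted log2 scale and 0.44 on the log2(TPM + 1) scale, and for UTOpiA against normal it was 0.05 and 0.28. The median gene of ACLF livers therefore sits higher, relative to normal, in TPM than in the fit, which does not hold for every gene.

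Against normal livers, the empty group had 10 of the 32 tested complement genes called higher and 1 called lower, where 20.7% of all 14089 genes tested were called higher and 11.1% lower. The 10 were C1qa, C1qb, C1qc, C5ar1, C4b, Cfd, C7, Serping1, Clu and Cd55, and the 1 was C8g. In the UTOpiA group 14 were called higher, the same 10 together with C1r, C1s, C9 and C4bpa, and again C8g alone was called lower, against 18.2% and 6.81% of all genes. Cd55 was under 10 counts in every normal liver, so it passed the filter through the ACLF livers alone and had to differ; without it 9 of 31 were called higher with the empty circuit and 13 of 31 with UTOpiA. Of the 6 myeloid genes, the same 4 were called higher in both comparisons, and their median log2 fold change was 2.22 with the empty circuit and 1.86 with UTOpiA. Of the 19 hepatocyte-made genes, 2 were called higher with the empty circuit, Serping1 and C4b, and 6 with UTOpiA, these 2 among them. C8g was the 1 called lower in each. The C4b call was lost in both comparisons when the overlapping C4 rows were summed in the edgeR fit (adjusted p = 0.332 and 0.256). By the adjusted p alone, without regard to size, 13 were higher and 4 lower in the empty group, where 26.9% and 21.5% of all genes were, and with UTOpiA 16 were higher and 2 lower, where 23.3% and 16.2% were. On the log2(TPM + 1) scale, where the median of all genes is higher, C1r, C1s, C9, C4bpa and C2 were called in the empty group too by limma, so the difference between the counts of 10 and 14 depends on the scale. In TPM, 18 of the 32 had every empty-group liver above every normal liver and 2, C8g and Masp2, had every one below, against 53.4% and 12.8% of all genes, so the first count is near the background. With UTOpiA 22 lay above and 1 below without overlap, against 39.0% and 13.4%. Both comparisons use the same 3 normal livers. Since each library holds RNA of the whole liver, a change in the number of cells of a type and a change in RNA per cell cannot be told apart.

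**Figure D1:**
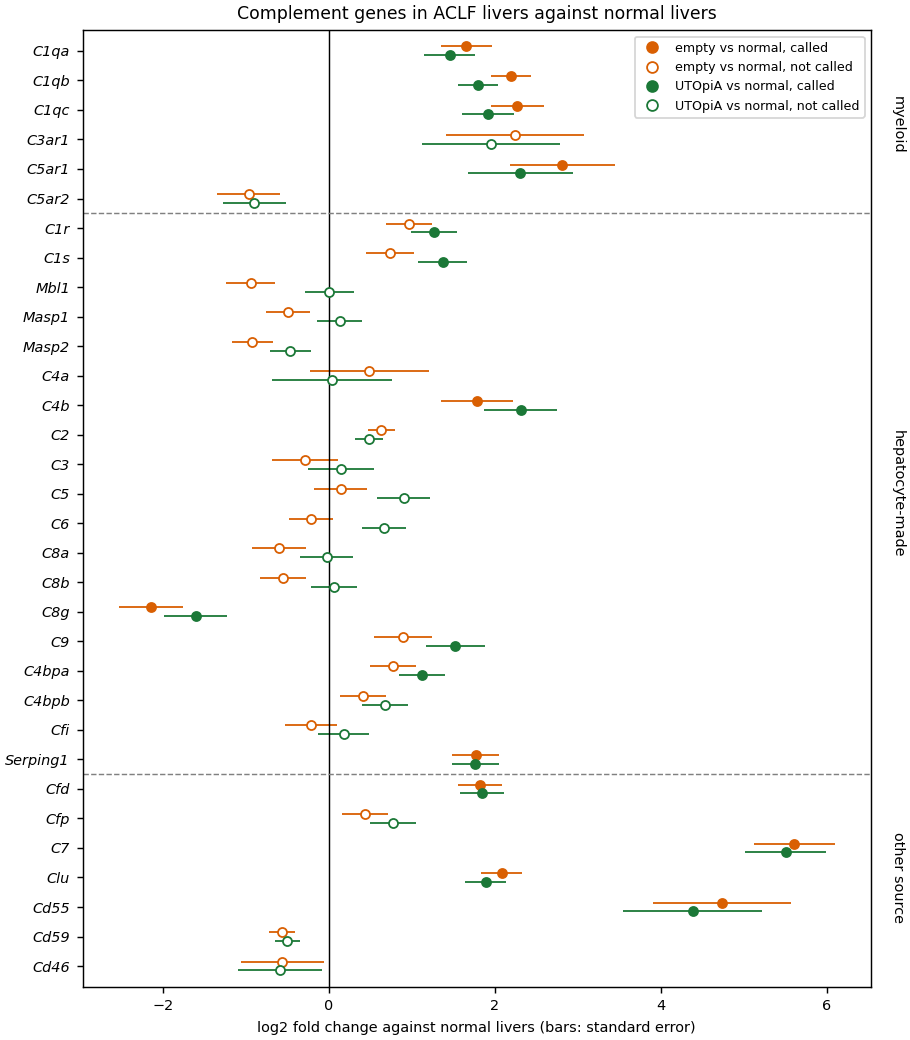
Log2 fold change (x axis) of the 32 tested complement genes (y axis, by usual source) in the empty group (orange) and in the UTOpiA group (green) against normal livers, 3 livers per group. Points are edgeR estimates, bars are standard errors, and filled points were called. C7 has the points farthest to the right, at 5.61 and 5.51, C8g is the only filled point left of 0, and the hepatocyte-made genes spread on both sides of 0; the points of Cd55 rest on 1 count in each normal liver.

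C1q is the recognition molecule of the classical pathway and is built from the A, B and C chains encoded by C1qa, C1qb and C1qc. The genes lie side by side on chromosome 5 (rn6), with C1qb at 155246447 to 155252003, C1qc at 155255005 to 155258392 and C1qa at 155261250 to 155264143, and gaps of 3001 and 2857 bases between them. C1qa stood at 93.2, 71.6 and 81.8 TPM in the normal livers, at 445, 311 and 354 with the empty circuit and at 247, 504 and 149 with UTOpiA. C1qb stood at 72.1, 59.5 and 62.5 TPM in the normal livers, at 496, 329 and 448 with the empty circuit and at 251, 444 and 184 with UTOpiA. C1qc stood at 89.7, 78.0 and 79.6 TPM in the normal livers, at 665, 410 and 640 with the empty circuit and at 337, 692 and 212 with UTOpiA. For each chain the lowest ACLF liver lay above the highest normal liver, and the SD of C1qa was 184 TPM with UTOpiA against 68.1 TPM with the empty circuit.

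All 3 chains rose in ACLF livers. In the empty group C1qa rose by 1.66 ± 0.31 (adjusted p = 0.00207), C1qb by 2.20 ± 0.25 (adjusted p = 1.92e-04) and C1qc by 2.27 ± 0.32 (adjusted p = 5.23e-04). In the UTOpiA group the rises were 1.46 ± 0.30 (adjusted p = 0.0052), 1.80 ± 0.24 (adjusted p = 6.71e-04) and 1.92 ± 0.31 (adjusted p = 0.00159) in the same order. Within a liver the ratio of C1qa to C1qc TPM was 0.918 to 1.04 in normal livers, 0.553 to 0.759 with the empty circuit and 0.703 to 0.734 with UTOpiA, so the normal range did not meet the ACLF ranges. The ratio of C1qb to C1qc was 0.763 to 0.804 in normal livers and 0.641 to 0.869 over the ACLF livers, with overlapping groups.

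The macrophage and Kupffer cell markers moved with C1q. Of 17 markers tested, 12 were called higher with the empty circuit and 10 with UTOpiA, with median log2 fold changes of 2.01 and 1.49. Without Trem2, which was under 10 counts in every normal liver and so passed the filter through ACLF livers alone, the counts were 11 and 9 of 16. Their summed level was 427 to 522 TPM in normal livers, 1902 to 3062 with the empty circuit and 1195 to 2555 with UTOpiA, and Trem2 was at 3 counts or fewer in each normal liver. For each 100 TPM of these markers the livers held 48.9 to 50.9 TPM of the C1q chains in the normal group, 52.4 to 58.3 with the empty circuit and 45.6 to 64.2 with UTOpiA. The normal range lay below the range of the empty group and within that of the UTOpiA group. The make-up of the marker sum differed between groups. Lyz2 had 10.6 to 17.8 TPM in normal livers and 169 to 1043 over the ACLF livers, and Clec4f had 113 to 122 and 14.3 to 228. The ratio is therefore no measure of C1q per macrophage. The part of macrophage number in the C1q result was not tested.

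C1r and C1s are the serine proteases that ride on C1q and cut C4 and C2, and their genes lie 6762 bases apart on chromosome 4. C1r stood at 320, 189 and 225 TPM in the normal livers, at 646, 727 and 681 with the empty circuit and at 859, 667 and 654 with UTOpiA. C1s stood at 359, 211 and 241 TPM in the normal livers, at 606, 769 and 559 with the empty circuit and at 936, 825 and 828 with UTOpiA. Every ACLF liver lay above every normal liver for both proteases. In the UTOpiA group C1r rose by 1.27 ± 0.27 (adjusted p = 0.00609) and C1s by 1.38 ± 0.29 (adjusted p = 0.00582). In the empty group C1r rose by 0.97 ± 0.27 (adjusted p = 0.0158), which is short of 2-fold, and C1s had a fitted difference of 0.74 ± 0.29 that did not pass (adjusted p = 0.0595). C1r was called there under 7 of 18 alternative settings, at 1.20 without normal replicate 1, 1.02 without empty replicate 3 and 1.52 by limma on log2(TPM + 1) among them. For C1s in the empty group DESeq2 gave 0.75 (adjusted p = 0.0151), and limma on log2(TPM + 1) called it, at 1.28 (adjusted p = 0.00176).

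The promoters of C1qa, C1r, C3 and C4bpa are shown as examples from genes of different source, and all 4 are among those that hold a motif match. Promoters without a match are not shown, that of C1qb with 0 matches among them. The 4 shown were read from RefSeq on GRCr8, run from 250 bases before to 50 bases after the start of the gene, and are given 5′ to 3′ on the strand of the gene. Capitals mark matches, on either strand, to TTCNNNGAA, the letters of a STAT site, in C1qa and to TTGCNNAA, the letters of a C/EBP site, in the others. STAT and C/EBP proteins are factors of the acute-phase response. C1qa lies at chr5:154419884-154420183 on the minus strand, C1r at chr4:159098763-159099062 on the plus strand, C3 at chr9:2201290-2201589 on the minus strand and C4bpa at chr13:44663422-44663721 on the minus strand.
C1qa: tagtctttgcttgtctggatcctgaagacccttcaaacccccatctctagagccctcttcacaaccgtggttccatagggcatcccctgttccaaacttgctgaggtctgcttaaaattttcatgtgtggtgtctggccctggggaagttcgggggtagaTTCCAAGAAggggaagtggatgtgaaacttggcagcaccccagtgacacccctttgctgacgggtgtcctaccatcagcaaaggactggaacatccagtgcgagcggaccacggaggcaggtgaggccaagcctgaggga
C1r: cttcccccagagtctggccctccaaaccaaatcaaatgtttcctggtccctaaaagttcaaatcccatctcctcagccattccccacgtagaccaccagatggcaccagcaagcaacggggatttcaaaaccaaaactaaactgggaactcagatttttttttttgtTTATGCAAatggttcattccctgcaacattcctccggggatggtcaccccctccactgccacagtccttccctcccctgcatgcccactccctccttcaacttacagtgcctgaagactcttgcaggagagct
C3: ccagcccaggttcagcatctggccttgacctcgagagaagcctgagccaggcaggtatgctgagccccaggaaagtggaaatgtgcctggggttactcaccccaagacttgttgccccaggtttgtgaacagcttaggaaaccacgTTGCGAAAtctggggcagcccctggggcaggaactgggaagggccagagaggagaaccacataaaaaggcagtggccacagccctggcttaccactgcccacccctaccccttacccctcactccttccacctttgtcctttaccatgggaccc
C4bpa: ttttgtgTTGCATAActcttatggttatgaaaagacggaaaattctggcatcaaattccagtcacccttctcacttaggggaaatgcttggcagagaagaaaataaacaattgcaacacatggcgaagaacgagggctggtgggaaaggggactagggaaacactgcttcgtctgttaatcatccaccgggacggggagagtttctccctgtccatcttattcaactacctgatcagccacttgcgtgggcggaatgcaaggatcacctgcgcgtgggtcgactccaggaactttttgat
In C1qa the match begins 90 bases before the start, in C1r 83, in C3 104 and in C4bpa 243. A RefSeq promoter was matched for 22 of the 34 genes. The letters TTGCNNAA were in 6 of the 22, namely C1r, C3, C4bpa, C6, C8a and C8b, all of them among the 14 hepatocyte-made genes with a promoter and none among the 4 myeloid genes with one, and in 10.6% of all 33469 promoters. The letters TTCNNNGAA were in 4 of the 22, namely C1qa, C4bpb, C5ar2 and C8a, and in 8.87% of all promoters; by source they were in 2 of the 14 hepatocyte-made and 2 of the 4 myeloid promoters. Of the other motifs searched on both strands, the HNF4 letters CAAAGNNCA were in 1 of the 22, C5ar2, and 6.08% of all, while a longer NF-kB pattern and a longer HNF1 pattern were in none, and in 0.362% and 0.00299% of all. The genes with the C/EBP letters included C1r and C4bpa, which were called higher in the UTOpiA group, and C3, C6, C8a and C8b, which were called in neither comparison.

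The lectin pathway genes gave a different picture. Mbl1 encodes mannose-binding lectin A, and Masp1 and Masp2 encode the proteases bound to such lectins. Mbl1 stood at 267, 219 and 244 TPM in the normal livers, at 163, 227 and 152 with the empty circuit and at 346, 214 and 323 with UTOpiA, and every pair of groups overlapped. In the empty group Mbl1 fell by 0.94 on the fitted log2 scale (standard error 0.30, adjusted p = 0.0258), short of 2-fold, and the UTOpiA group against normal gave 0.01 ± 0.30 (adjusted p = 0.987). On the log2(TPM + 1) scale the difference of the empty group was -0.45 with an adjusted p of 0.127 by limma. Masp2 stood at 150, 139 and 146 TPM in the normal livers, at 121, 111 and 95.2 with the empty circuit and at 143, 103 and 136 with UTOpiA. The empty livers lay below all normal livers, and the UTOpiA livers overlapped with both groups. Masp2 fell by 0.92 in the empty group (standard error 0.25, adjusted p = 0.0137), whereas the UTOpiA group against normal gave -0.46 ± 0.25 (adjusted p = 0.168). On the log2(TPM + 1) scale the Masp2 difference in the empty group was -0.41 with an adjusted p of 0.0648. Masp1 passed in neither comparison (log2 fold changes of -0.49 and 0.13), and on the log2(TPM + 1) scale the values were 0.01 and 0.40. Mbl1 was called lower in the empty group without empty replicate 2, at -1.16, or without normal replicate 2, at -1.03, and Masp2 without empty replicate 1, at -1.05.

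C3, the component at which the routes meet, had the highest mean TPM of the complement genes in every group, although Clu exceeded it in 3 of the 6 ACLF livers. It stood at 3947, 2753 and 3320 TPM in the normal livers, at 3293, 5392 and 3009 with the empty circuit and at 5188, 3280 and 4896 with UTOpiA, and all groups overlapped. The fitted difference was -0.29 ± 0.40 in the empty group (adjusted p = 0.571) and 0.15 ± 0.40 in the UTOpiA group (adjusted p = 0.791), and on the log2(TPM + 1) scale the first was 0.19. No change of C3 was detectable with these livers.

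C4 and C2 form the C3 convertase of the classical and lectin routes, and the rows of these genes carry limits. C4b stood at 5.73, 5.73 and 8.67 TPM in the normal livers, at 49.6, 21.6 and 27.0 with the empty circuit and at 44.6, 26.8 and 47.8 with UTOpiA. Every ACLF liver lay above the normal livers, and the row was called higher at 1.79 ± 0.43 (adjusted p = 0.0088) and 2.31 ± 0.44 (adjusted p = 0.00391). The C4b gene model on chromosome 20, at 4302344 to 4316715, shares 14369 bases, 100% of its length after rounding, with another model on the same strand, LOC103689965, which held 64166 counts over the 9 libraries, and C4a is a near-identical copy. LOC103689965 itself gave 0.21 (adjusted p = 0.602) and 0.22 (adjusted p = 0.596), and C4a 0.49 (adjusted p = 0.603) and 0.04. With the 3 rows summed, an alternative chosen after the data had been seen, the C4 call was lost: 0.38 (adjusted p = 0.332) in the empty group and 0.46 (adjusted p = 0.256) in the UTOpiA group. The methods of the study state that uniquely mapped reads were counted. How reads that overlap several models at this locus were treated is not stated.

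C2 rose by 0.63 ± 0.16 in the empty group (adjusted p = 0.0108) and by 0.48 ± 0.16 in the UTOpiA group (adjusted p = 0.0405), short of 2-fold in both. The UTOpiA difference passed in 11 of 18 alternatives, DESeq2 not among them (0.48, adjusted p = 0.0504), and gave 0.41 (adjusted p = 0.145) without normal replicate 2, and the empty-group difference missed without that liver alone (adjusted p = 0.0517). On the log2(TPM + 1) scale the first difference was 1.09 by limma (adjusted p = 0.00403), past 2-fold. C2 stood at 14.7 to 17.8 TPM in normal livers, 27.3 to 43.4 with the empty circuit and 21.4 to 35.9 with UTOpiA. Its model overlaps over 99.5% of its length with 1 of the 2 rows of Cfb on the same strand. Cfb encodes factor B, the C2 counterpart of the alternative pathway. The 2 Cfb rows held 3 counts in the first normal liver and 0 elsewhere, the shorter model lies inside the longer, and the level of factor B cannot be read from these rows.

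Factor D, encoded by Cfd, cuts factor B, and properdin, encoded by Cfp and made mainly by leukocytes, holds the alternative convertase together. Cfd stood at 7.74, 9.75 and 8.58 TPM in the normal livers, at 51.4, 40.8 and 39.4 with the empty circuit and at 25.6, 54.1 and 38.2 with UTOpiA. The ACLF livers all lay above the normal livers. Cfd rose by 1.82 ± 0.26 (adjusted p = 6.23e-04) in the empty group and by 1.85 ± 0.26 (adjusted p = 8.85e-04) in the UTOpiA group. The Cfd model lies wholly within Arhgap45 on the same strand, which held 2854 counts in the 9 libraries and itself rose by 1.58 ± 0.22 (adjusted p = 5.76e-04) and 1.36 ± 0.22 (adjusted p = 0.00169). Cfp had 28.0 to 29.7 TPM in normal livers and 34.1 to 87.3 over the ACLF livers, with fitted differences of 0.44 (adjusted p = 0.221) and 0.77 (adjusted p = 0.0528) that did not pass in edgeR. For UTOpiA the Cfp difference passed in DESeq2, at 0.77 (adjusted p = 0.0400), and was called by limma on log2(TPM + 1), at 1.05 (adjusted p = 0.0312).

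**Figure D2:**
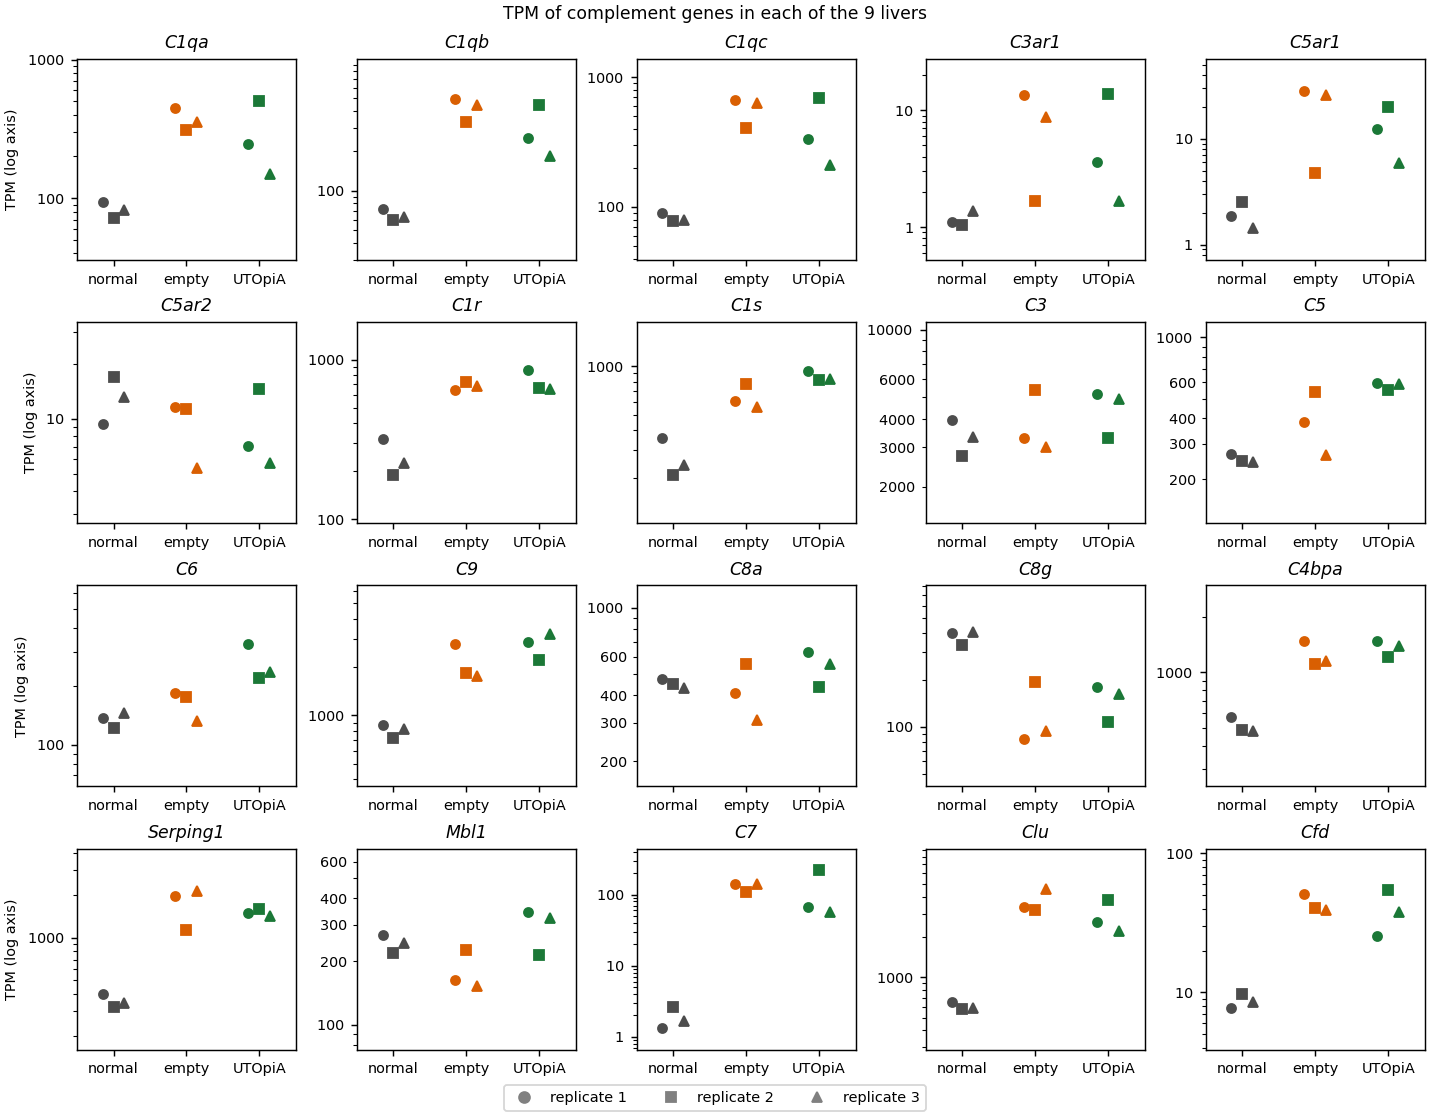
TPM on log axes (y) of 20 complement genes in each of the 9 livers, by group (x) and replicate (symbol). The C1q chains, C7, Clu, Cfd and Serping1 have all ACLF livers above the normal livers, C8g has all of them below, and C3 overlaps in all groups, from 2753 to 5392 TPM.

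The terminal components did not move as a block. C7 is made in the liver largely by cells other than hepatocytes, and it had the largest fitted change of the list. It stood at 1.33, 2.60 and 1.69 TPM in the normal livers, at 142, 110 and 142 with the empty circuit and at 67.9, 220 and 56.2 with UTOpiA. All ACLF livers lay above the normal range. C7 rose by 5.61 ± 0.49 (adjusted p = 8.79e-05) in the empty group and by 5.51 ± 0.49 (adjusted p = 1.38e-04) in the UTOpiA group. C6, its neighbour on chromosome 2 at a distance of 175340 bases with 1 protein-coding gene between, did not pass in the edgeR fit of either comparison (-0.22, adjusted p = 0.520, and 0.66, adjusted p = 0.0725). For UTOpiA the C6 difference passed in DESeq2, at 0.65 (adjusted p = 0.0368), and by limma on log2(TPM + 1), at 0.93 (adjusted p = 0.00765), and on that scale the empty-group value turned to 0.28 (adjusted p = 0.270). The TPM ratio of C7 to C6 was 0.00972 to 0.0212 in normal livers, 0.624 to 1.07 with the empty circuit and 0.206 to 1.00 with UTOpiA.

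Markers of stellate cells and fibroblasts moved in the same direction as C7. Of 13 tested, 11 were called higher with the empty circuit and 12 with UTOpiA, with summed levels of 122 to 143 TPM in normal livers, 1163 to 1302 with the empty circuit and 663 to 1536 with UTOpiA. Cholangiocyte markers also rose, with 11 of 13 called higher in each and summed levels of 29.9 to 40.7, 412 to 855 and 190 to 585 TPM. Without the markers under 10 counts in every normal liver, which could only come out higher (Fbln1, Lum and Thy1 in the first list and Cldn4, Cldn7, Krt7 and Sox9 in the second), 9 of 10 and 7 of 9 were called higher in each comparison. The part of these cells in the C7 result was not tested. Of 11 endothelial markers 2 were called higher and 1 lower in each comparison, and of 11 lymphocyte markers 6 were called higher in each, or 1 of 10 and 3 of 7 higher without the markers so low in normal livers. Among all genes, 20.7% were called higher and 11.1% lower with the empty circuit, and 18.2% and 6.81% with UTOpiA. The endothelial shares of 18.2% and 9.09% are near that background.

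C8 is made of an alpha, a beta and a gamma chain, and only the gene of the gamma chain was called. C8g stood at 402, 337 and 403 TPM in the normal livers, at 82.9, 192 and 93.3 with the empty circuit and at 181, 108 and 163 with UTOpiA. All ACLF livers lay below the normal livers. C8g fell by 2.15 (standard error 0.39, adjusted p = 0.00202) in the empty group and by 1.61 (standard error 0.38, adjusted p = 0.00991) in the UTOpiA group. C8a gave -0.60 (adjusted p = 0.147) and -0.02, and C8b gave -0.55 (adjusted p = 0.127) and 0.07, with overlapping TPM in both. The ratio of C8g to C8a TPM was 0.751 to 0.929 in normal livers, 0.202 to 0.348 with the empty circuit and 0.249 to 0.294 with UTOpiA. The ratio of C8b to C8a was 0.575 to 0.633, 0.509 to 0.764 and 0.572 to 0.700. C8a and C8b lie 10407 bases apart on chromosome 5, whereas C8g is on chromosome 3 at 2724616 to 2727616, where 363 of its bases overlap Fbxw5 on the opposite strand. The C8 gamma chain belongs to the lipocalin family, unlike the alpha and beta chains, which share the pore-forming domain of C9.

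**Figure D3:**
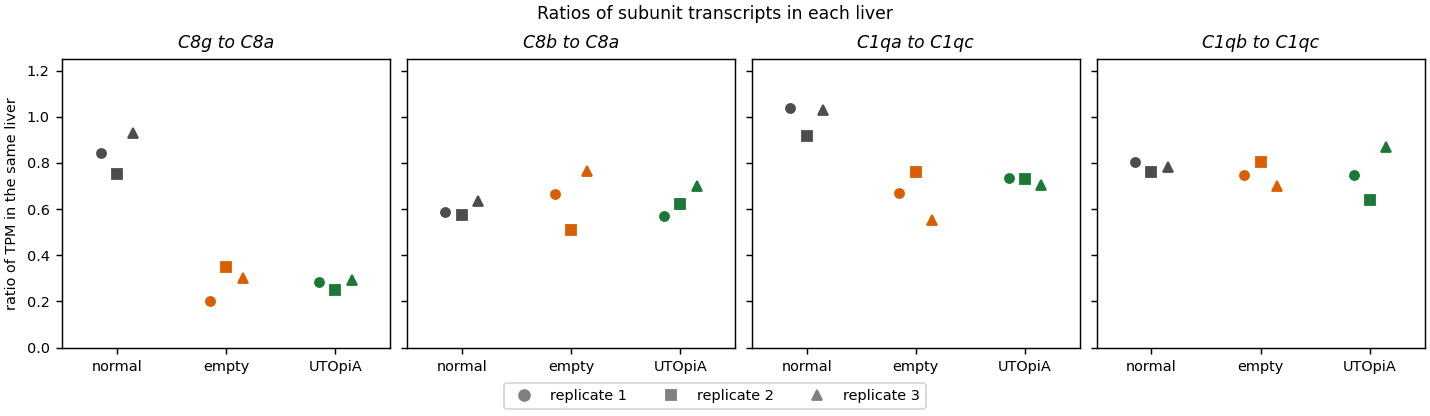
Ratio of TPM of subunit genes within the same liver (y axis) for C8g to C8a, C8b to C8a, C1qa to C1qc and C1qb to C1qc, by group (x axis) and replicate (symbol). The C8g to C8a ratio is at most 0.348 in ACLF livers and at least 0.751 in normal livers, while the C8b to C8a and C1qb to C1qc ratios overlap between groups.

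C9 polymerises into the pore of the membrane attack complex and had the second highest TPM of the list in normal livers. It stood at 875, 722 and 822 TPM in the normal livers, at 2794, 1838 and 1759 with the empty circuit and at 2881, 2224 and 3233 with UTOpiA. Every ACLF liver lay above every normal liver. C9 rose by 1.52 ± 0.36 in the UTOpiA group (adjusted p = 0.0088), and the fitted difference of 0.90 ± 0.35 in the empty group did not pass (adjusted p = 0.0585). On the log2(TPM + 1) scale C9 was called in the empty group as well, at 1.37 (adjusted p = 0.00164). C5, the source of C5a, stood at 268, 246 and 244 TPM in the normal livers, at 385, 537 and 265 with the empty circuit and at 593, 553 and 589 with UTOpiA. The UTOpiA livers lay above all the others, and 1 of the empty livers lay within the normal range. C5 rose by 0.90 ± 0.32 in the UTOpiA group (adjusted p = 0.0468), short of 2-fold, and gave 0.14 ± 0.32 in the empty group (adjusted p = 0.735). By limma on log2(TPM + 1) the empty-group difference of C5 was larger, at 0.59 (adjusted p = 0.0602). The UTOpiA difference of C5 passed 2-fold without UTOpiA replicate 2, at 1.06 (adjusted p = 0.0413), and by limma on log2(TPM + 1), at 1.19 (adjusted p = 0.0051), but its adjusted p was under 0.05 in only 11 of the 18 alternatives and reached 0.133 without normal replicate 2, at 0.87.

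Among the soluble regulators, Serping1 encodes the C1 inhibitor, which also restrains the contact system, and Clu encodes clusterin, a secreted chaperone that binds the terminal complex. Serping1 stood at 400, 323 and 347 TPM in the normal livers, at 1982, 1132 and 2132 with the empty circuit and at 1506, 1585 and 1415 with UTOpiA. Clu stood at 653, 576 and 593 TPM in the normal livers, at 3342, 3215 and 4592 with the empty circuit and at 2585, 3801 and 2203 with UTOpiA. Both genes had every ACLF liver above the normal livers. Serping1 rose by 1.77 ± 0.29 in both groups (adjusted p = 0.00111 and 0.0016). Clu rose by 2.08 ± 0.25 (adjusted p = 2.51e-04) in the empty group and by 1.89 ± 0.24 (adjusted p = 5.70e-04) in the UTOpiA group. Clu was not counted among the hepatocyte-made genes, although its mean of 607 TPM in normal livers was rank 4 of the list.

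C4bpa and C4bpb encode the chains of C4b-binding protein, a cofactor in the breakdown of C4b, and Cfi encodes factor I, the protease that carries it out. C4bpa stood at 570, 484 and 481 TPM in the normal livers, at 1476, 1109 and 1157 with the empty circuit and at 1484, 1213 and 1390 with UTOpiA, with no overlap between normal and ACLF livers. It rose by 0.77 ± 0.28 (adjusted p = 0.0423), short of 2-fold, in the empty group and by 1.13 ± 0.28 (adjusted p = 0.0112) in the UTOpiA group. By limma on log2(TPM + 1) C4bpa was called in the empty group too, at 1.28 (adjusted p = 6.61e-04). The UTOpiA call was lost without UTOpiA replicate 3, at 0.94 (adjusted p = 0.0302), and without normal replicate 2, at 1.07 (adjusted p = 0.0501). C4bpb did not pass in the edgeR fit of either comparison (0.41, adjusted p = 0.25, and 0.68, adjusted p = 0.0783), although its TPM did not overlap with normal in either. For UTOpiA it passed in DESeq2, at 0.67 (adjusted p = 0.0354), and on the log2(TPM + 1) scale limma gave 0.88 (adjusted p = 0.00948) for the empty group and 0.97 (adjusted p = 0.00991) for UTOpiA, short of 2-fold. Cfi passed in neither comparison (-0.21 and 0.18), and on the log2(TPM + 1) scale the values were 0.27 and 0.45. The empty-group rise of C4bpa passed in 10 of 18 alternatives and was 0.58 (adjusted p = 0.147) without empty replicate 1.

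The membrane-bound regulators protect host cells. Cd55, the decay-accelerating factor, had 1 count in each normal liver, 43, 40 and 60 counts with the empty circuit and 34, 60 and 5 with UTOpiA. The third UTOpiA liver lay far below the other ACLF livers, yet above the normal livers. Since it entered the test through the ACLF livers alone, its being called higher in both comparisons is no support for a change, and the ratio of summed counts is given as a description: 143 against 3 counts, a ratio of 29.2 (95% exact interval 9.79 to 143.3) for the empty group, and 99 against 3, a ratio of 24.5 (8.14 to 120.8) for the UTOpiA group, scaled for library size, with intervals that cover counting error only. By limma on log2(TPM + 1) without the filter on low values the UTOpiA call was lost, at 0.97 (adjusted p = 0.0641). Cd59, which blocks the insertion of C9, fell by 0.57 in the empty group (standard error 0.15, adjusted p = 0.0131) and by 0.50 in the UTOpiA group (adjusted p = 0.0276), while its TPM overlapped, at 82.0 to 87.1 in normal livers and 59.0 to 92.5 over the ACLF livers. On the log2(TPM + 1) scale the Cd59 differences were -0.06 (adjusted p = 0.820 by limma) and -0.19 (adjusted p = 0.467). Cd46, the membrane cofactor protein, stood at 2.10 to 2.53 TPM in normal livers and passed in neither comparison.

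Levels of the receptors for the anaphylatoxins varied widely among the ACLF livers. C5ar1, the main C5a receptor of neutrophils and macrophages, stood at 1.86, 2.53 and 1.43 TPM in the normal livers, at 28.3, 4.79 and 25.7 with the empty circuit and at 12.3, 20.0 and 5.90 with UTOpiA. C3ar1, the C3a receptor, stood at 1.11, 1.05 and 1.38 TPM in the normal livers, at 13.5, 1.66 and 8.78 with the empty circuit and at 3.59, 13.7 and 1.66 with UTOpiA. C5ar2, the second C5a receptor, stood at 9.32, 16.9 and 13.1 TPM in the normal livers, at 11.7, 11.3 and 5.34 with the empty circuit and at 7.10, 14.5 and 5.71 with UTOpiA. The ACLF livers lay above the normal livers for C5ar1 and C3ar1, with empty replicate 2 and UTOpiA replicate 3 the lowest of their groups, and all groups overlapped for C5ar2.

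C5ar1 rose by 2.82 ± 0.64 in the empty group (adjusted p = 0.00645) and by 2.31 ± 0.63 in the UTOpiA group (adjusted p = 0.0190). The UTOpiA call was lost without UTOpiA replicate 2, at 2.00 (adjusted p = 0.0682), without normal replicate 1, at 2.28 (adjusted p = 0.0590), and without normal replicate 3, at 2.13 (adjusted p = 0.0685), and also by limma on log2(TPM + 1) without the filter, at 2.10 (adjusted p = 0.0519). C3ar1 had fitted differences of 2.25 ± 0.83 (adjusted p = 0.0507) and 1.95 ± 0.83 (adjusted p = 0.0916) that did not pass. It was called in the empty group without empty replicate 2, at 2.73 (adjusted p = 0.0102), by DESeq2, at 2.27 (adjusted p = 0.00786), and without UTOpiA replicate 2 or 3 (adjusted p = 0.0272 and 0.0442). For UTOpiA it was called without empty replicate 2, at 1.95 (adjusted p = 0.0346), and by DESeq2, also at 1.95 (adjusted p = 0.0287). With only the 6 libraries compared in the fit it was called in both comparisons (adjusted p = 0.0385 and 0.0437). C5ar2 gave -0.97 (adjusted p = 0.0581) and -0.90 (adjusted p = 0.0849). In DESeq2 the C5ar2 difference passed for the empty group, at -0.95 (adjusted p = 0.0468), but not for UTOpiA (adjusted p = 0.0697). By limma on log2(TPM + 1) the values were -0.47 (adjusted p = 0.326) and -0.54 (adjusted p = 0.294). C5ar1 and C5ar2 lie 6559 bases apart on chromosome 1, and the TPM ratio of C5ar1 to C5ar2 was 0.109 to 0.199 in normal livers, 0.422 to 4.81 with the empty circuit and 1.03 to 1.73 with UTOpiA. Of 18 neutrophil markers listed 9 passed the filter, and 4 of these, Cxcr2, Mmp8, Mmp9 and S100a8, were under 10 counts in every normal liver and passed through ACLF livers alone. Of the other 5, 4 were called higher in each comparison, Retnlg being the exception. The summed levels of all 18 were 11.4 to 15.6 TPM in normal livers, 860 to 2737 with the empty circuit and 5545 to 6719 with UTOpiA. The UTOpiA sums were led by Lcn2, which other liver cells also make, and without it the ranges were 6.33 to 12.7, 214 to 1155 and 186 to 536 TPM. For UTOpiA against the empty group 8 of the 9 had a fitted value below 0, with a median of -0.63, and 0 were called. Of the 18 listed, 12 were at 3 counts or fewer in each normal liver, 4 in each liver with the empty circuit and 9 in each with UTOpiA, and Mpo, Cd177, Ltf and Prtn3 were so in every group. The part of neutrophils in the C5ar1 result was not tested.

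The contrast between the myeloid and the hepatocyte-made genes was set beside the markers of their cells. All 18 hepatocyte markers tested had a fitted value below 0 in the empty group, 11 of them called lower, and the median was -1.12. In the UTOpiA group 4 were called lower and the median was -0.73. Their summed level was 184295 to 199566 TPM in normal livers, 43934 to 87534 with the empty circuit and 50964 to 83680 with UTOpiA. The hepatocyte-made complement genes had medians of 0.14 and 0.48 in the same comparisons, where all genes had 0.04 and 0.05. The median for the empty group had no stable sign: it was -0.03 without the filter on counts, -0.15 without empty replicate 2 and 0.59 on the log2(TPM + 1) scale.

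In individual livers the log2 difference from the mean of the normal livers had a median over the 6 myeloid genes of 2.54, 1.12 and 2.18 with the empty circuit and of 1.42, 2.34 and 1.10 with UTOpiA. The median over the 19 hepatocyte-made genes was 0.17, 0.21 and -0.56 with the empty circuit and 0.49, 0.12 and 0.81 with UTOpiA. In the UTOpiA group replicate 2 had the highest TPM for 6 of 6 myeloid genes and the lowest for 15 of 19 hepatocyte-made genes, and replicate 3 had the lowest for 6 of 6 myeloid genes. In the empty group replicate 1 was highest for 6 of 6 myeloid genes and replicate 2 lowest for 5 of 6. Of the 19 hepatocyte-made genes in that group, replicate 1 was highest for 8 and lowest for 2, replicate 2 highest for 9 and lowest for 6, and replicate 3 highest for 2 and lowest for 11. The median of the macrophage markers was 2.49, 1.52 and 1.75 with the empty circuit and 1.57, 1.87 and 0.88 with UTOpiA, and that of the hepatocyte markers was -1.52, -0.91 and -1.38 and then -0.50, -1.23 and -0.66. The liver highest in the myeloid genes was thus also highest in macrophage markers and lowest in hepatocyte markers, in each ACLF group.

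**Figure D4:**
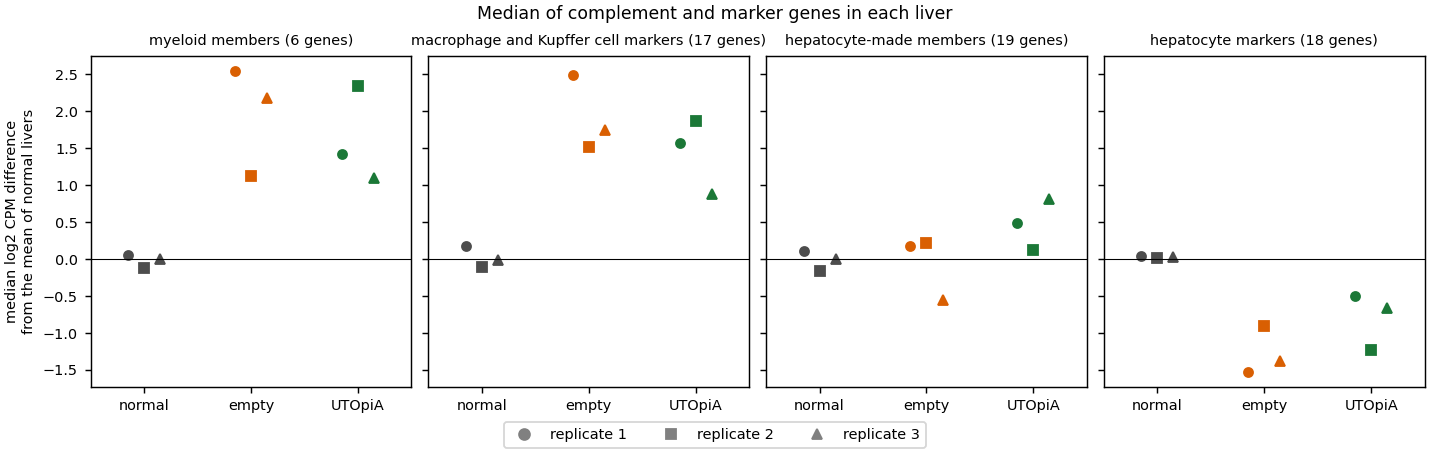
Median log2 CPM difference from the mean of the normal livers (y axis) of the 6 myeloid complement genes, 17 macrophage and Kupffer cell markers, 19 hepatocyte-made complement genes and 18 hepatocyte markers in each liver, by group (x axis) and replicate (symbol). The myeloid genes and macrophage markers lie above 0 in every ACLF liver, the hepatocyte markers lie below 0, and the hepatocyte-made complement genes lie between -0.56 and 0.81.

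The UTOpiA and empty groups were compared directly to ask whether the treatment changed complement expression within ACLF. No complement gene was called in either direction by edgeR or by DESeq2. Of all genes, edgeR called 0 of 14089, and DESeq2 called 51 higher and 74 lower of 14484, which is 0.352% and 0.511%. The smallest adjusted p among the complement genes was that of C6, at 0.364 in edgeR and 0.0701 in DESeq2, and Mbl1 had 0.117 in DESeq2. At an unadjusted p under 0.05 there were 4 of the 32, which is 12.5%, against 10.3% of all genes, and all 4 had a fitted value above 0. These were C6 at 0.88 ± 0.26 (unadjusted p = 0.00822 in edgeR), Mbl1 at 0.95 ± 0.30 (unadjusted p = 0.0101), C5 at 0.76 ± 0.32 (unadjusted p = 0.0381) and Masp1 at 0.62 ± 0.27 (unadjusted p = 0.0446). C6 stood at 137, 123 and 146 TPM in the normal livers, at 186, 177 and 133 with the empty circuit and at 330, 220 and 238 with UTOpiA. C1s, C5 and C6 were the complement genes whose TPM did not overlap between the ACLF groups, all 3 higher in the UTOpiA group, against 2.43% of all genes tested that lay higher without overlap and 8.62% that lay lower. For such a gene the exact two-sided permutation p is 0.1, the lowest that 3 livers against 3 allow.

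Hepatocyte-made genes had a fitted value above 0 in 16 of 19 cases, with a median of 0.53, and myeloid genes below 0 in 5 of 6 cases, with a median of -0.33, where 50.2% of all genes lay above 0 and their median was 0.00. None of these genes passed the test singly. The hepatocyte markers had a median of 0.48 with 17 of 18 above 0, and the macrophage markers a median of -0.41 with 12 of 17 below 0, and their part in the result was not tested. The C1q chains gave -0.20 ± 0.30 for C1qa, -0.40 ± 0.23 for C1qb and -0.35 ± 0.30 for C1qc, and C5ar1 gave -0.51 ± 0.57. Without UTOpiA replicate 2 the myeloid median was -0.70, and without UTOpiA replicate 3 it was -0.02. The hepatocyte-made median was 0.79 and 0.24 when the same livers were left out, and 0.34 when the third liver of the empty group was. By limma on log2(TPM + 1) it was 0.32. For C3 the difference was 0.44 ± 0.40 (adjusted p = 0.739), and for Serping1 and Cfd it was 0.00 ± 0.28 and 0.03 ± 0.25.

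**Figure D5:**
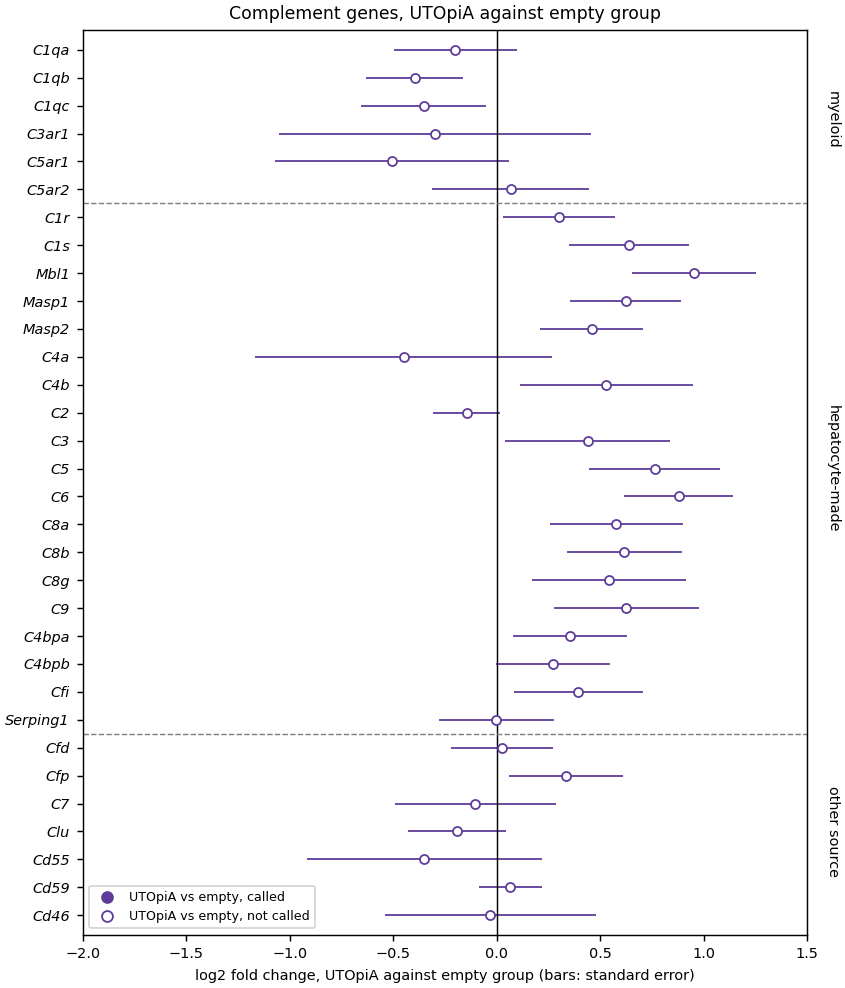
Log2 fold change (x axis) of the 32 tested complement genes (y axis, by usual source) in the UTOpiA group against the empty group, 3 livers each. Points are edgeR estimates and bars are standard errors; no gene was called, so all points are open, and most hepatocyte-made genes lie right of 0, with Mbl1 the farthest at 0.95.

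A further 31 genes that bind, resemble or regulate complement were listed beside these, and 26 were tested. With the empty circuit 9 were called higher and 2 lower (median -0.09), and with UTOpiA 5 were called higher and 0 lower (median 0.25). As shares of the 26, these are 34.6% and 7.69% with the empty circuit, against 20.7% and 11.1% of all genes, and 19.2% and 0% with UTOpiA, against 18.2% and 6.81%, so the UTOpiA count of higher genes is near the background. Between the UTOpiA and empty groups 0 were called. The integrin chains Itgax and Itgam, which form complement receptors on myeloid cells, rose by 4.54 ± 0.72 (adjusted p = 0.00126) and 3.21 ± 0.67 (adjusted p = 0.00454) in the empty group. With UTOpiA they were called higher as well, at 4.09 ± 0.72 (adjusted p = 0.00284) and 2.56 ± 0.66 (adjusted p = 0.0152). Ptx3, a pentraxin that binds C1q, was under 10 counts in every normal liver so its call among the 9 is no support; it had 0 to 0.245 TPM in normal livers, 1.72 to 5.58 with the empty circuit and 0.0619 to 1.01 with UTOpiA. The 2 genes called lower in the empty group were Cfhr2, a relative of factor H, which fell by 1.21 (adjusted p = 0.0168), and C1rl, a C1r-like protease, which fell by 1.11 (adjusted p = 0.00723).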

How the data were processed

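Livers of 3 normal, 3 empty and 3 UTOpiA rats were compared. The authors deposited raw counts per gene and TPM per gene for each library. The submitters' processing notes name Trimmomatic, HISAT2, featureCounts and the rn6 build, whereas the methods of the study name Cutadapt and a mouse build, and the kits named differ as well. Coordinates are those of the deposited files, taken as rn6. The strand setting and the treatment of reads that overlap several genes are not given in the sources used here, so overlapping rows are uncertain.

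Counts were filtered with filterByExpr and fitted in edgeR 4.0.16 (R 4.3.3) with TMM scaling and the quasi-likelihood test over all 9 libraries, with Benjamini-Hochberg adjustment over 14089 genes. A gene was called at an adjusted p under 0.05 and a change of at least 2-fold. The standard error is the log2 fold change divided by the square root of F. DESeq2 1.42.0 and limma 3.58.1 on log2(TPM + 1) and log2(TPM + 0.1) were alternatives, beside filters, scaling and left-out livers. The script was tested on simulated data. Closest replicates differed well beyond sampling noise (chi-square per degree of freedom 18.8), so no library was counted as a repeat. The labels call the livers biological replicates.

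The complement genes, their grouping and the marker lists were chosen with earlier results of these data known. Every gene with a row is named, with values in every liver for the myeloid genes, each called gene and C3, C5, C9 and Mbl1; of the other complement genes, up to 3 called in each direction with the largest change in the empty group are named. Values per liver of C6 and Masp2 and the ratios were added after values had been seen.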

Additional observations from a re-analysis of the deposited data

How the results depend on the processing

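Against normal livers, 10 to 15 complement genes were called higher with the empty circuit and 13 to 16 with UTOpiA over all alternatives, where the values reported were 10 and 14, and 0 between the UTOpiA and empty groups in every alternative. With the change threshold of 2-fold dropped, 4 were called lower with the empty circuit and 2 with UTOpiA, where 1 was reported for each. Leaving out single livers gave 1 to 2 called lower in the empty group. The median of the hepatocyte-made genes in the empty group was 0.59 on both the log2(TPM + 1) and the log2(TPM + 0.1) scale against 0.14, and in the UTOpiA group 0.77 and 0.80 against 0.48; the median of all genes is also higher on these scales. Leaving out single livers moved the median of the myeloid genes in the UTOpiA group between 1.29, without UTOpiA replicate 2, and 2.03. C1qa, C1qb, C1qc, Cfd, C7, C8g, Serping1 and Clu were called under all 18 alternative settings of both comparisons with normal livers. The replicate numbers did not pair the livers: correlations of same-numbered livers lay between -0.18 and 0.06. With the replicate number as a block, 2 genes were called lower in the empty group, the addition being C5ar2 (adjusted p = 0.0445), and 11 higher. The cause of these shifts was not tested. With 3 livers per group and wide spread within the ACLF groups, differences between them of the size seen could not be resolved.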

Other observations

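Mbl2, which encodes mannose-binding lectin C, had no row under its symbol. The row LOC100911854 on chromosome 1, at 248723397 to 248729962 in rn6, carries the Entrez identifier that RefSeq gives to Mbl2, and it was not counted among the complement genes. It stood at 4.63, 4.22 and 5.24 TPM in the normal livers, at 1.10, 3.40 and 1.05 with the empty circuit and at 3.58, 2.70 and 2.83 with UTOpiA. All ACLF livers lay below the normal livers, and the empty and UTOpiA livers overlapped.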
